A study of Mus musculus with 458 samples.

Results

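Procr encodes the endothelial protein C receptor (EPCR, CD201), a surface protein of haematopoietic stem cells (HSCs) that binds protein C and its activated form. Antibodies to EPCR are widely used to enrich mouse HSCs, and the receptor is shared with endothelium. Here 458 single HSCs from 6 mice were split, within each mouse, into Procr-expressing cells (Procr at 1 RPKM or more) and Procr-low cells (Procr below 1 RPKM). RPKM counts reads per kilobase of a gene and corrects for how deeply that cell was sequenced. The classes were thus selected on the measured Procr value itself, and held 110 and 348 cells. Procr values describe the split and are given with no test. All other genes were compared between the classes within each mouse, and the 6 mice were the replicates.

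The cells came from the bone marrow of C57BL/6 mice that had each received 1 HSC positive for Vwf, and were followed over 16 weeks. Multilineage (MUL) mice had reconstitution of all lineages, PEM mice of platelets, erythrocytes and myeloid cells, and PLT mice of platelets only, with 2 mice a type. All cells of all mice were donor-derived, since the sort gate was LSK CD150+CD48-CD45.2+, in which LSK stands for lineage-negative, Sca-1-positive and Kit-positive cells and CD45.2 marks the donor. The HSCs of a mouse are therefore the progeny of a single transplanted cell, so each mouse was 1 clone. Mapped reads per cell had a median of 4.90 M (range 1.298 to 17.26 M). The sort markers were seen in both classes: Kit was at 1 RPKM or more in 63.0% ± 16.6 of expressing and 57.0% ± 20.05 of low cells (mean of mice ± SD, n = 6), Ly6a (Sca-1) in 66.7% and 54.4%, and Cd48, which the gate excludes, in 0.0% and 1.06%. Every cell had passed a gate for Kit and Sca-1 protein, yet many were below 1 RPKM for Kit or Ly6a. A value below 1 RPKM thus does not show that a cell lacked the gene's product, and this holds for Procr-low cells too.

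Procr lies on chromosome 2, 155751117 to 155755471, plus strand (GRCm38, GENCODE M21). It was at 1 RPKM or more in 24.02% of the 458 cells. The share was 21.8% in MUL mouse 1 (17 of 78 cells, exact Clopper-Pearson 95% interval 13.2 to 32.6) and 24.7% in MUL mouse 2 (21 of 85, 16.0 to 35.2). It was 32.3% in PEM mouse 1 (30 of 93, 22.9 to 42.8) and 24% in PEM mouse 2 (6 of 25, 9.36 to 45.1). It was 24.7% in PLT mouse 1 (23 of 93, 16.4 to 34.8) and 15.5% in PLT mouse 2 (13 of 84, 8.51 to 25.0). The intervals of all 6 mice overlapped, and the intervals cover counting error only.

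The split fell in a sparse stretch of the Procr values. Of the 348 low cells, 212 were listed at 0 and 136 had a trace between 0 and 1 RPKM. Only 14 of the 110 expressing cells lay between 1 and 10 RPKM, and 96 were at 10 RPKM or more. The 3 cells just inside the threshold had 1.02, 1.25 and 1.35 RPKM, and the 3 just outside had 0.947, 0.887 and 0.837 RPKM. If the smallest step above 0 was 1 read, 1 RPKM of Procr stood for a median of 6.23 reads per cell (range 1.65 to 21.95).

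Mean Procr among expressing cells was 197.5 and 306.8 RPKM in MUL mice 1 and 2, 176.1 and 188.5 RPKM in PEM mice 1 and 2, and 386.6 and 152.3 RPKM in PLT mice 1 and 2. The highest single cell of each mouse ranged from 445.9 RPKM in PLT mouse 2 to 1075 RPKM in PLT mouse 1. The PLT mice held both the highest and the lowest of the 6 means, so the spread within a reconstitution type was as wide as that between types.

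**Figure D1:**
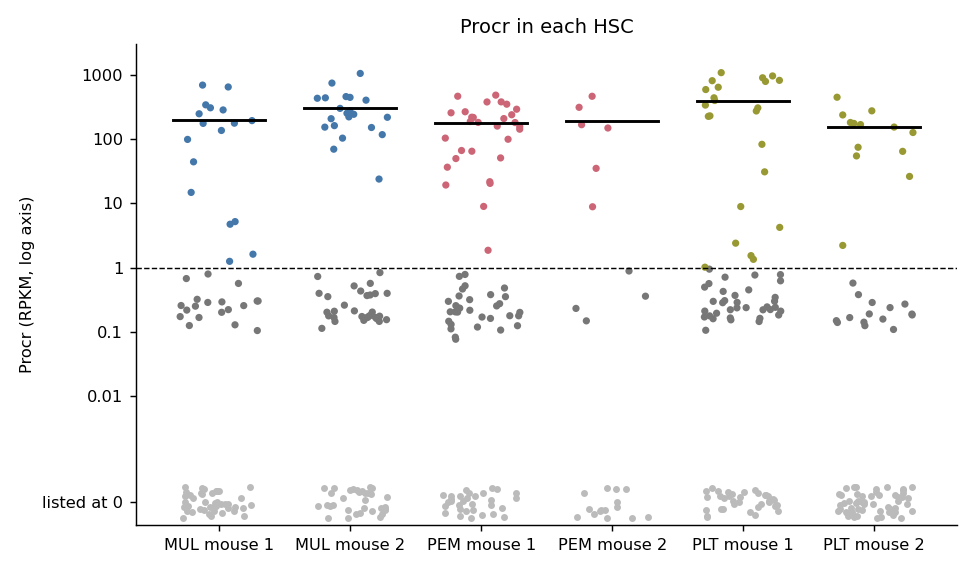
Procr in each of the 458 HSCs (points, RPKM on a log axis, with cells listed at 0 in a band of their own) by mouse. The dashed line is the threshold of 1 RPKM, coloured points are expressing cells and the black bar is their mean in the mouse, between 152.3 and 386.6 RPKM.

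No measure of cell quality differed between the classes beyond the spread between mice. The median count of detected genes was higher in expressing cells in both MUL mice (2626 against 2172, and 2647 against 2392) and both PLT mice (1958 against 1860, and 2655 against 2570). It was lower in both PEM mice, at differences of -199.5 and -62.5 genes. The mean difference was 105 ± 230 genes (SD, n = 6 mice, exact two-sided sign-flip permutation p = 0.344, 0.516 after adjustment over the 3 quality measures). It was 39.8 genes from means over cells and 13.5 genes from differences within each plate. The smallest p that 6 mice allow is 0.03125. Mapped reads differed by 0.80 ± 2.06 M (exact permutation p = 0.594, n = 6). That mean rested on PEM mouse 2, whose 6 expressing cells had a median of 8.73 M reads against 3.78 M in its 19 low cells, and it was -0.03 M without that mouse. The percent of mitochondrial reads differed by -0.26 ± 0.55 percentage points (exact permutation p = 0.3125, n = 6).

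**Figure D2:**
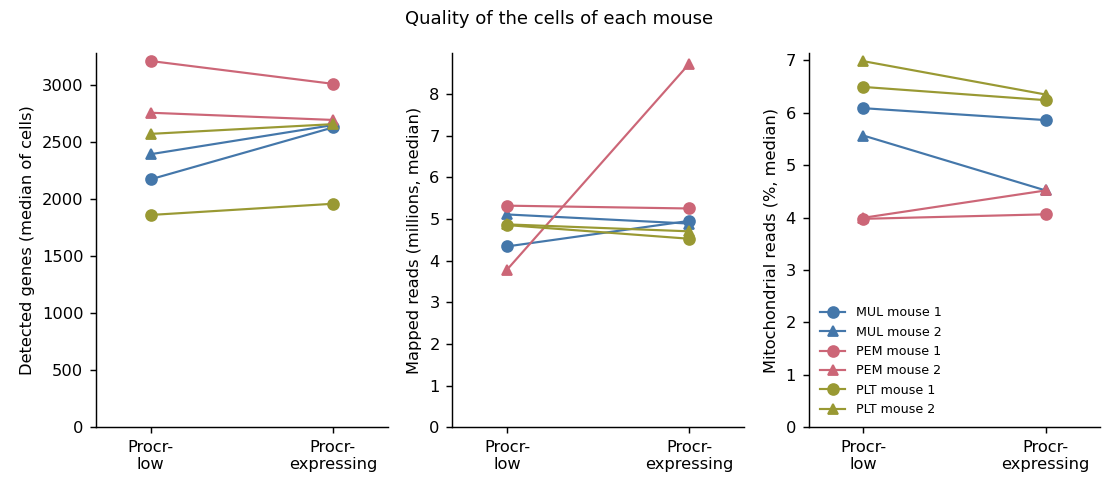
Median of detected genes, mapped reads and percent of mitochondrial reads (y axes from 0) in the Procr-low and Procr-expressing cells of each mouse, joined by a line. Detected genes were higher in the expressing cells of 4 of the 6 mice and lower in both PEM mice.

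No gene passed the adjusted threshold of 0.05 between the classes. The test was limma on log2(mean RPKM + 1) of the cells of each class and mouse, with the mouse as a block, and with the larger class reduced to the size of the smaller by repeated draws. It covered 11336 genes and called 0.0% of them, with a lowest adjusted p of 0.338. At an unadjusted p under 0.05, 4.08% of genes were higher and 3.58% lower in expressing cells, 869 genes in all. The direction was the same in every mouse for 299 higher genes (2.64%) and 270 lower genes (2.38%). The median difference over all genes was 0.04 on the log2 scale, and 52.7% of the genes had a positive difference. The differences below are therefore described by their size and by the number of mice that share them, and none is called. Genes picked by the smallest p come from a test paired by mouse, so agreement of the mice in direction is favoured by the choice. Levels are means over all cells of a class, while differences come from the size-matched draws. The 1 RPKM added before the log shrinks the change of low genes. For many genes, rare ones among them, the draws also gave a higher difference than all cells of both classes did. With all cells the median difference over all genes was -0.28, and 32.5% of the genes had a positive difference. Fam132a differed by 2.32 in the draws and by 1.29 with all cells, and Fam64a by -2.44 and -3.25.

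Of the 10 genes with the smallest unadjusted p on the lower side, 5 were abundant in both classes and 5 were rare. Actb, the cytoplasmic actin (chromosome 5, 142903115 to 142906754, minus strand), had the smallest p of all genes. Its mean level in expressing cells was 4319 and 3159 RPKM in MUL mice 1 and 2, 4105 and 4802 RPKM in PEM mice 1 and 2, and 9463 and 6765 RPKM in PLT mice 1 and 2. In low cells it was 6797 and 3887, 5475 and 7120, and 11430 and 9273 RPKM in the same order. Actb was lower in the expressing cells of all 6 mice, although the levels of different mice overlapped, with a difference of -0.43 ± 0.06 (log2, SE, adjusted p = 0.338). Actb was at 1 RPKM or more in all 458 cells, so the difference was one of level and not of how many cells had it.

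The next 3 abundant genes had the same direction in all 6 mice. Hmgn2, a nucleosome-binding protein, averaged 1882 ± 771 RPKM in expressing and 2910 ± 1214 RPKM in low cells (SD, n = 6 mice), a difference of -0.61 ± 0.10. Cbx3, a heterochromatin protein, averaged 1494 ± 536 and 2416 ± 983 RPKM, a difference of -0.63 ± 0.12. Atpif1, the inhibitor of the mitochondrial ATP synthase, averaged 774 ± 299 and 1235 ± 377 RPKM, a difference of -0.70 ± 0.13. Pdcd4, an inhibitor of translation initiation, had a wider gap. It was at 136.0, 95.3, 104.8, 161.0, 277.1 and 203.3 RPKM in expressing cells, and at 261.9, 183.6, 374.8, 502.9, 483.1 and 637.9 RPKM in low cells (MUL, PEM and PLT mice 1 and 2 in turn). The expressing cells of every mouse had less Pdcd4 than the low cells of the same mouse, with a difference of -1.25 ± 0.21 (adjusted p = 0.338). Actb, Hmgn2 and Cbx3 have many near-identical pseudogene copies, so how the authors' counting split reads among them is uncertain.

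The other 5 lower genes were rare in both classes and rarer in expressing cells. Fam64a (Pimreg), a mitotic gene, was at 1 RPKM or more in 0 of the 110 expressing cells, which allows a share of up to 2.73%, and in 25 of the 348 low cells. Cdc25c, the phosphatase that activates Cdk1 at entry into mitosis, was in 0 and 18 cells. Ncapg, a condensin subunit, was in 1 and 40 cells, and Neil3, a DNA glycosylase of cycling cells, in 1 and 44 cells. Nubpl, an assembly factor of respiratory complex I, was in 4 and 30 cells. Their differences lay between -2.08 and -3.43, lower in 6 of 6 mice for each, with an adjusted p of 0.338. The 1 expressing cell with Neil3 was in MUL mouse 1, where the difference was -0.57 against -3.44 or lower in the other mice. With the cells rich in G2-M genes left out (those with 8 or more G2-M list genes at 1 RPKM or more), the differences were -0.02 for Fam64a, 0.02 for Cdc25c, -0.58 for Neil3 and -0.80 for Ncapg, while that of Nubpl was -2.67. Those cells were picked by mitotic genes, so a shift of mitotic genes towards 0 was favoured by the choice.

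On the higher side, the 10 genes with the smallest p were detected in few cells, except Shisa5 and Phf11b. Shisa5, a p53-induced membrane protein, was at 1 RPKM or more in 76 of 110 expressing and 162 of 348 low cells. Its mean level was 335.9 and 422.0 RPKM in the expressing cells of MUL mice 1 and 2, 313.7 and 317.8 RPKM in PEM mice 1 and 2, and 162.1 and 103.3 RPKM in PLT mice 1 and 2. Low cells had 206.4 and 276.8, 190.6 and 116.7, and 55.4 and 63.4 RPKM. Expressing cells were higher in each mouse, and the difference was 1.15 ± 0.25 (log2, SE, adjusted p = 0.469).

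Phf11b, a PHD finger gene, averaged 68.7 ± 21.2 RPKM in expressing and 20.1 ± 8.5 RPKM in low cells (SD, n = 6 mice), higher in 6 of 6 mice, with a difference of 2.50 ± 0.48 (adjusted p = 0.338). It belongs to a cluster of closely similar Phf11 genes, so its reads may be split among them. Ifit1, an interferon-induced antiviral protein, averaged 60.2 ± 42.8 and 21.8 ± 13.9 RPKM and differed by 2.36 ± 0.48 (adjusted p = 0.388). Ccl19, a chemokine with several near-identical copies in the mouse genome, was at 1 RPKM or more in 26 expressing and 29 low cells and differed by 2.76 ± 0.56. Ctsh, a lysosomal cysteine protease, was in 22 and 19 cells and differed by 2.997 ± 0.64 in the size-matched draws. By the mean over all cells, however, Ctsh was higher in expressing cells in only 4 of 6 mice.

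The remaining 5 higher genes were each in 13 to 16 expressing cells and 10 to 22 low cells. Znrd1as, on chromosome 17 (36958592 to 36965625, plus strand), had the largest difference of the 10, 3.87 ± 0.71 (adjusted p = 0.338). Its level ranged from 19.1 to 109.8 RPKM in the expressing cells of the mice and from 0.04 to 16.6 RPKM in low cells. Tbc1d22a, a Rab GTPase-activating protein, differed by 3.12 ± 0.60. Nudt22, a nucleotide-sugar hydrolase, differed by 3.002 ± 0.67, Npdc1 by 2.72 ± 0.60 and Fam132a (C1qtnf12), a secreted protein of the C1q and TNF family, by 2.32 ± 0.44. By the means over all cells, Npdc1 and Nudt22 were higher in 5 of 6 mice and the other 3 in 6 of 6.

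**Figure D3:**
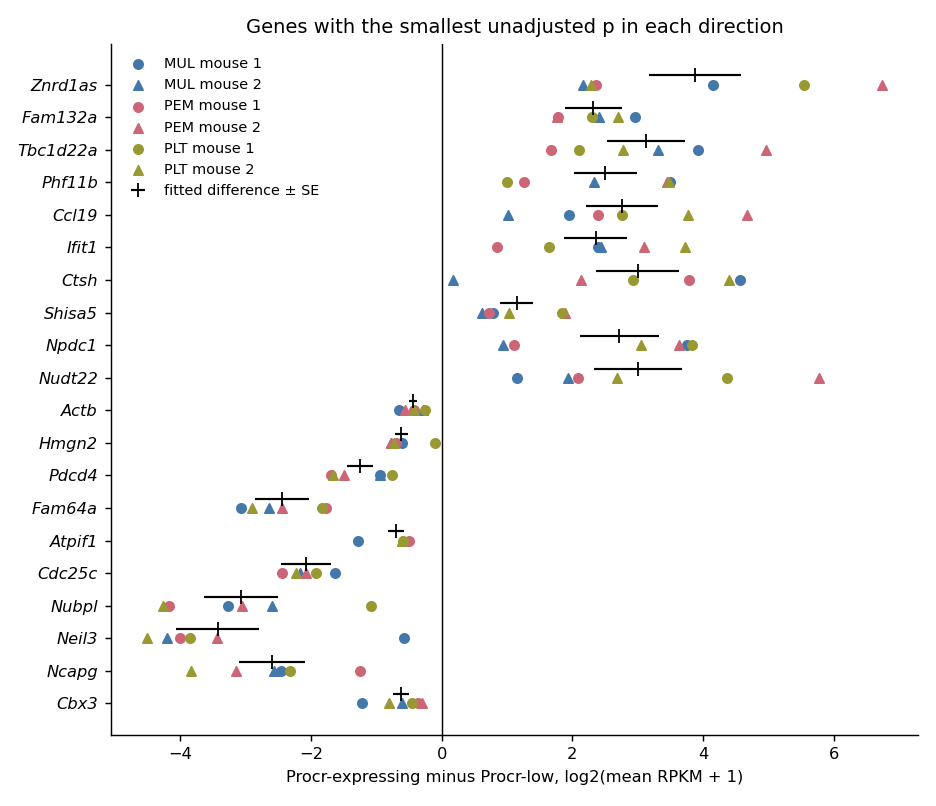
Difference between Procr-expressing and Procr-low cells on the log2(mean RPKM + 1) scale for the 10 genes with the smallest unadjusted p in each direction. Points are mice and black ticks the fitted difference ± SE, none of which passed the adjusted threshold. All 6 mice lie on the same side of 0 for each of the 20 genes, which picking by p in these same mice favours.

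Genes of the G2 and M phases were the list with the lowest median. These encode the mitotic cyclins and kinases, and the kinesins, centromere and chromosome proteins that divide the cell. All 30 listed genes were tested and 0 passed the adjusted threshold. All 30 had a negative fitted difference, with a median of -1.74 on the log2 scale against 0.04 over all genes tested. Of the 30, 20 were lower at an unadjusted p under 0.05 (3.58% over all genes), and 8 were lower in every mouse (2.38% over all genes). The summed level of the list was 382 ± 159 RPKM in expressing and 1103 ± 444 RPKM in low cells (SD, n = 6 mice), lower in the expressing cells of 6 of 6 mice. It was 671, 204, 336, 425, 353 and 304 RPKM in expressing cells, and 884, 1227, 807, 1583, 510 and 1608 RPKM in low cells (MUL, PEM and PLT mice 1 and 2 in turn). The gap was widest in PLT mouse 2 and narrowest in PLT mouse 1 in RPKM. The list median was -2.74 in MUL mouse 2, -2.93 in PEM mouse 2 and -2.41 in PLT mouse 2, but 0.04 in MUL mouse 1 and -0.13 in PLT mouse 1.

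The members Ccnb1 and Aurkb were named after their values were seen, so their direction was set by the choice and they serve as examples only. Ccnb1, the mitotic cyclin B1, was at 3.94, 6.43, 12.8, 0.07, 0.00 and 0.24 RPKM in the expressing cells of the mice in the same order, and at 61.7, 51.6, 29.1, 83.0, 12.3 and 107.8 RPKM in low cells. It was in 5 of 110 expressing and 44 of 348 low cells and differed by -3.08 ± 0.72 (adjusted p = 0.469), with all 6 mice lower. Aurkb, the kinase of the chromosomal passenger complex, was in 4 and 38 cells and differed by -2.83 ± 0.63. Mki67, which encodes the proliferation antigen Ki-67, was in 5 and 58 cells, at a difference of -1.85 ± 0.75 (adjusted p = 0.604). Mki67 was lower in 5 of 6 mice and higher in PLT mouse 1 (10.9 against 5.28 RPKM).

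Cells that had several of these genes together were also counted, with no test. Cells with 8 or more of the 30 genes at 1 RPKM or more made up 2 of 17 expressing and 13 of 61 low cells in MUL mouse 1, and 2 of 21 and 10 of 64 in MUL mouse 2. They made up 1 of 30 and 14 of 63 in PEM mouse 1, and 0 of 6 and 7 of 19 in PEM mouse 2. In PLT mouse 1 they made up 2 of 23 and 4 of 70, and in PLT mouse 2, 1 of 13 and 27 of 71. The mean share was 6.83% ± 4.35 in expressing and 23.3% ± 12.4 in low cells (SD, n = 6 mice), and it was lower in 5 of 6 mice, PLT mouse 1 being the exception. At a cut of 5 or more genes the shares were closer, 32.5% ± 9.87 and 42.3% ± 17.2. That gap was smaller than either SD, and the share was again lower in expressing cells in 5 of 6 mice, all but PLT mouse 1. With the 8 expressing and 75 low cells that had 8 or more genes left out, the median difference of the list was -0.09. Those cells were picked by the genes of the same list, so a shift of its median towards 0 was built into the choice. With cells matched on detected genes within the mouse the list median was -1.56, so the difference was nearly as large among cells of like detected genes.

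**Figure D4:**
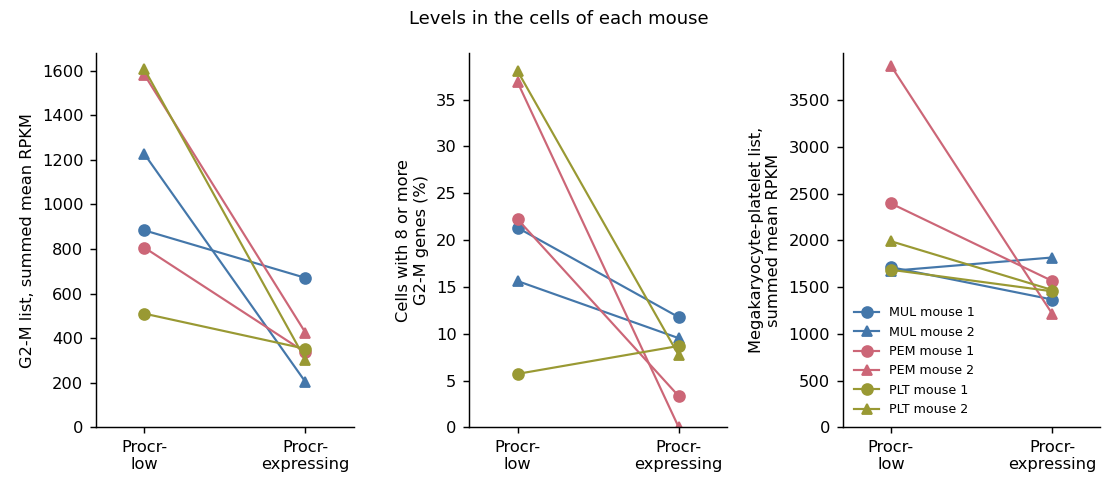
Summed mean RPKM of the 30 G2-M genes, percent of cells with 8 or more of them at 1 RPKM or more, and summed mean RPKM of the megakaryocyte-platelet list (y axes from 0) in the low and expressing cells of each mouse, joined by a line. The G2-M sum was lower in expressing cells in 6 of 6 mice, and the share of cells in 5 of 6.

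Many genes of this kind share short promoter elements, the CHR (cell cycle genes homology region, TTTGAA) and CCAAT boxes. The 120 bases before the start of 4 G2-M list genes are shown because these hold both elements and overlap no annotated exon. Sequences are from RefSeq (GRCm38.p6), 5′ to 3′ on the strand of the gene, with TTTGAA or CCAAT, or either one's reverse complement TTCAAA or ATTGG, in capitals. They are from Ckap2 (chr8:22185820-22185939, minus strand), which encodes a spindle protein, Kif11 (chr19:37376262-37376381, plus strand), a spindle kinesin, Hmgb2 (chr8:57511723-57511842, plus strand), a chromatin protein, and Top2a (chr11:99024190-99024309, minus strand), a DNA topoisomerase.
Ckap2: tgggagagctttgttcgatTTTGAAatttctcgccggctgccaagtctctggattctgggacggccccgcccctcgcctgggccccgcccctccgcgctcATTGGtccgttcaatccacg
Kif11: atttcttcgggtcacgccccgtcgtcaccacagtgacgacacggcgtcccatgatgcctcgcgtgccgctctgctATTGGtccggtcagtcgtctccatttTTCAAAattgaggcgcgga
Hmgb2: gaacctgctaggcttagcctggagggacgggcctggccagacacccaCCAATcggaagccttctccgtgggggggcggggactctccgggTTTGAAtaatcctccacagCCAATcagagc
Top2a: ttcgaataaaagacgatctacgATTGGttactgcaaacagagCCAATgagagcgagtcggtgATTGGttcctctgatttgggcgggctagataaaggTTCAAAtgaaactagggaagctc
Their differences between the classes were -2.52 for Ckap2, -1.86 for Kif11, -1.92 for Hmgb2 and -1.57 for Top2a. Over the window from 250 bases before to 50 after the start, and on both strands, TTTGAA was in 18 of the 26 G2-M list genes with a promoter in the table (69.2%) and in 20.2% of 27025 genes. CCAAT was in 21 of 26 (80.8%) and in 41.1% of all genes. Both were in 17 of 26 (65.4%) and in 7.97% of all genes, while 3 of 25 S phase genes (12%) had both. These shares describe the letters of the promoters and not the binding of any factor.

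Genes of DNA replication (S phase) leaned the same way. Of 30 tested, 28 had a negative difference, with a median of -1.22. At an unadjusted p under 0.05, 8 were lower (3.58% over all genes), 0 were higher and 0 passed adjustment. The mouse medians ran from -2.55 in PEM mouse 2 to 0.46 in PLT mouse 1, the only mouse above 0. Members named after their values were seen include Rrm2, a subunit of ribonucleotide reductase (25.1 against 108.7 RPKM, difference -2.25 ± 0.85), and Uhrf1, which maintains DNA methylation (3.31 against 12.96 RPKM, -1.94 ± 0.65). Genes linked to quiescence had a median difference of -0.01, with 8 of 17 higher. Among these Cdkn1c, a cyclin-dependent kinase inhibitor, was at 10.7 ± 14.0 RPKM in expressing and 5.71 ± 4.001 RPKM in low cells (SD, n = 6), a difference of 0.78 ± 0.66 (adjusted p = 0.807).

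Megakaryocyte and platelet genes were mostly lower in expressing cells. Of 29 tested, 23 had a negative difference, with a median of -0.80. At an unadjusted p under 0.05, 10 were lower and 1 higher, against 3.58% and 4.08% over all genes, and 7 were lower in every mouse (2.38% over all genes). None passed adjustment. Gata1, the transcription factor of the megakaryocyte and erythroid lineages (chromosome X, 7959260 to 7978071, minus strand), was at 0.00, 2.13, 0.06, 0.08, 0.03 and 2.08 RPKM in expressing cells. In low cells it was at 13.2, 5.01, 27.5, 26.1, 5.61 and 19.5 RPKM (MUL, PEM and PLT mice 1 and 2 in turn). All expressing values lay below all low values, and the difference was -2.70 ± 0.64 (adjusted p = 0.469). Gata1 was at 1 RPKM or more in 5 of 110 expressing and 82 of 348 low cells.

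Itga2b, the platelet integrin subunit CD41, was in 5 of 110 and 64 of 348 cells. Its difference was -2.37 ± 0.64 (adjusted p = 0.496), lower in 6 of 6 mice. Pf4, platelet factor 4, was in a like share of cells of both classes (36.7% and 38.5%), but its mean level was 43.4 ± 18.5 RPKM in expressing and 587 ± 658 RPKM in low cells. The low-cell level ran from 20.2 RPKM in MUL mouse 2 to 1807 RPKM in PEM mouse 2, and the difference of Pf4 was -2.28 ± 0.68 (adjusted p = 0.531). Plek and Gp1bb, a platelet signalling protein and a subunit of the Vwf receptor, both named after their values were seen, were each in 1 expressing cell and in 34 and 37 low cells. Selp, P-selectin, was the one member of the list higher at an unadjusted p under 0.05. It was at 53.0 against 26.3 RPKM, with a difference of 1.63 ± 0.52 (adjusted p = 0.531, 6 of 6 mice).

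Vwf, by which the transplanted cells had been chosen, was at 24.4 ± 15.1 RPKM in expressing and 12.4 ± 6.7 RPKM in low cells, a difference of 0.79 ± 0.52 (SE, adjusted p = 0.740), with 5 of 6 mice higher and MUL mouse 1 at 0.48 against 2.92 RPKM. Gata2, a transcription factor of HSCs and progenitors, differed by 0.52 ± 0.41. The median of the megakaryocyte-platelet list was -0.63 with the cells rich in G2-M genes left out, and the Gata1 difference was then -1.49. Of the 13 erythroid genes tested, 11 had a negative difference, with a median of -0.43, and Klf1, the erythroid transcription factor, differed by -1.42 ± 0.69 (adjusted p = 0.665). The erythroid median ran from -2.49 in MUL mouse 1 to 1.66 in PLT mouse 1. It was -0.03, with 8 of 13 genes lower, without the cells rich in G2-M genes, and 0.40 with Procr above 0 against listed at 0, where Klf1 differed by 0.40.

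Most HSC-enriched genes tested had a positive difference, as did 52.7% of all genes tested. In the list of HSC-enriched surface and immune genes, 23 of 30 tested had a positive difference, with a median of 0.41 and a median above 0 in all 6 mice (0.08 to 0.73). At an unadjusted p under 0.05, 8 were higher and 1 lower, against 4.08% and 3.58% over all genes. In the list of HSC identity and self-renewal, 22 of 31 were positive, with a median of 0.30, and 2 were higher and 1 lower at that p. Among genes shared with endothelium, 13 of 18 were positive, with a median of 0.55, and 3 were higher. None of these genes passed adjustment. The mouse medians ran from -0.01 to 0.69 for HSC identity, with both PEM mouse 2 and PLT mouse 1 just below 0, and from 0 in MUL mouse 1 to 1.61 for genes shared with endothelium. With all cells of both classes, the median of all genes was -0.28 and 32.5% of them were positive. On that scale the list medians were 0.15 (surface and immune), 0.12 (identity, 16 of 31 positive) and 0.02 (endothelium, 9 of 18 positive). Some members of these lists are known markers of the HSC fraction with high EPCR.

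Cd34, a sialomucin of progenitors and endothelium (chromosome 1, 194938819 to 194961279, plus strand), was higher in expressing cells in 6 of 6 mice. It was at 112.1, 155.8, 63.5, 73.3, 5.97 and 25.0 RPKM in expressing cells, and at 91.1, 110.3, 24.2, 14.3, 0.00 and 11.3 RPKM in low cells (MUL, PEM and PLT mice 1 and 2 in turn). The difference was 1.90 ± 0.50 (adjusted p = 0.496), small in both MUL mice (0.53 and 0.57) and 1.46 to 3.34 in the others. The difference between the reconstitution types had an unadjusted p of 0.164 for Cd34. Ly6a (Sca-1), a sort marker, was at 460 ± 188 RPKM in expressing and 325 ± 126 RPKM in low cells, higher in 5 of 6 mice, with a difference of 0.63 ± 0.21 (adjusted p = 0.545). PEM mouse 2 was the exception, at 266.7 against 442.0 RPKM. The Ly6a difference was 0.80 with cells matched on detected genes, and 0.20 without the cells rich in G2-M genes.

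Ctla2b, a cysteine protease inhibitor, was at 216 ± 210 and 156 ± 183 RPKM, higher in 6 of 6 mice, with a difference of 1.05 ± 0.35 (adjusted p = 0.545). Its near-identical neighbour Ctla2a differed by -0.11 ± 0.28, and reads may be split between the pair. Esam, an endothelial adhesion molecule on HSCs, differed by 0.9955 ± 0.44 (adjusted p = 0.648) and Hlf, a transcription factor of HSCs, by 0.90 ± 0.44 (adjusted p = 0.665), each higher in 5 of 6 mice. Hlf was at 1 RPKM or more in 54 of 110 expressing and 97 of 348 low cells. Ptprc (CD45) differed by 0.88 ± 0.37 (adjusted p = 0.632). Cd27, a costimulatory receptor of HSCs named after its values were seen, was at 138.1 against 76.5 RPKM, with a difference of 1.31 ± 0.37 (adjusted p = 0.501) and all 6 mice higher. Cd9, a tetraspanin of HSCs and platelets chosen likewise, went the other way in 6 of 6 mice, at 190.4 against 321.5 RPKM and a difference of -0.90 ± 0.27.

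For other HSC genes the fitted differences were smaller than their SE. Mecom, a self-renewal factor, differed by 0.01 ± 0.61, with 4 of 6 mice higher and PEM mouse 2 at 0.17 against 17.9 RPKM. Fgd5 differed by 0.21 ± 0.72, Kit by 0.26 ± 0.44 and Tek, the angiopoietin receptor, by 0.06 ± 0.78. Slamf1, which encodes the sort marker CD150, differed by 0.55 ± 0.70 (adjusted p = 0.888). Emcn, endomucin, differed by -0.10 ± 0.57 and Aldh1a1 by 0.02 ± 0.28. The SE of Fgd5, Tek and Slamf1 exceeded the whole difference seen for Ly6a, which would not have been detectable in them. Several of these values rested on PEM mouse 2 with its 6 expressing cells. Without it, Mecom differed by 0.67, Kit by 0.69 and Tek by 0.64, against 0.81 for Ly6a, while Slamf1 differed by -0.22 and Fgd5 by -0.05. Of the lineage genes, Flt3 differed by 0.47 ± 0.61, Sfpi1 (Spi1, the factor PU.1) by 0.59 ± 0.95, Csf3r, the G-CSF receptor, by 0.04 ± 0.57 and Clu by -1.33 ± 0.83, while Mpo and Dntt were listed at 0 in all cells.

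Of 14 protein C pathway genes in the table other than Procr, 7 passed the filter on low levels, 3 of them with a positive and 4 with a negative difference. At an unadjusted p under 0.05, 2 were lower (Pros1 and F2rl2, named after their values were seen) and 0 higher, against 3.58% and 4.08% over all genes, and none passed adjustment. Thbd, thrombomodulin, a cofactor of protein C activation on endothelium, was at 9.60 ± 11.2 RPKM in expressing and 10.6 ± 7.9 RPKM in low cells, a difference of -0.42 ± 0.66 (adjusted p = 0.917). F2r, the thrombin receptor PAR1, which EPCR-bound activated protein C cleaves, was at 23.1 ± 17.5 and 34.8 ± 20.5 RPKM, a difference of -0.30 ± 0.67. Pros1, protein S, the cofactor of activated protein C, differed by -1.66 ± 0.73 (adjusted p = 0.645), lower in 4 of 6 mice. F2rl2 (PAR3) was at 1 RPKM or more in 0 of the 110 expressing and 13 of the 348 low cells, with a difference of -1.61 ± 0.43 (adjusted p = 0.496), lower in 5 of 6 mice. The median of the 7 was -0.30.

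Among further lists, 0 of the tested genes passed adjustment. Antigen presentation genes had a median difference of 0.15 that was above 0 in all 6 mice (0.11 to 0.38), and 5 of 23 were higher at an unadjusted p under 0.05 (4.08% over all genes). These included Tapbp, the peptide-loading protein tapasin (0.56 ± 0.19), and the class I gene H2-T23 (0.41 ± 0.15). Of 27 interferon response genes, 5 were higher in every mouse (2.64% over all genes), with a list median of 0.13. Of 85 oxidative phosphorylation genes, 57 were lower, with a median of -0.20, and 10 were lower and 1 higher at an unadjusted p under 0.05, against 3.58% and 4.08% over all genes, of which 52.7% were higher. PEM mouse 2 had a median above 0 (0.18). Without the cells rich in G2-M genes the median of these genes was -0.07, with 48 of 85 lower. Cox8a, a subunit of cytochrome c oxidase, was at 221.6 against 360.5 RPKM, with a difference of -0.79 ± 0.20 and all 6 mice lower. The median for glycolysis and hypoxia was 0.26 (4 of 24 genes higher at that p), and for ribosomal proteins 0.11. For immediate early genes it was 0.37 (1 of 18), and Fos and Jun differed by 0.75 ± 0.63 and 0.48 ± 0.54. The HSC ageing list had a median of 0.20, stem-cell signalling 0.21, chemokine, integrin and adhesion -0.08, multipotent progenitor 0.02, myeloid 0.53 and lymphoid 0.23. The myeloid mouse medians ran from -1.85 in PEM mouse 2 to 1.10 in PLT mouse 2. Without the cells rich in G2-M genes the myeloid list median was -0.21. The lymphoid median was above 0 in 2 of 6 mice, and the multipotent progenitor median kept its sign in 7 of 22 alternatives.

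**Figure D5:**
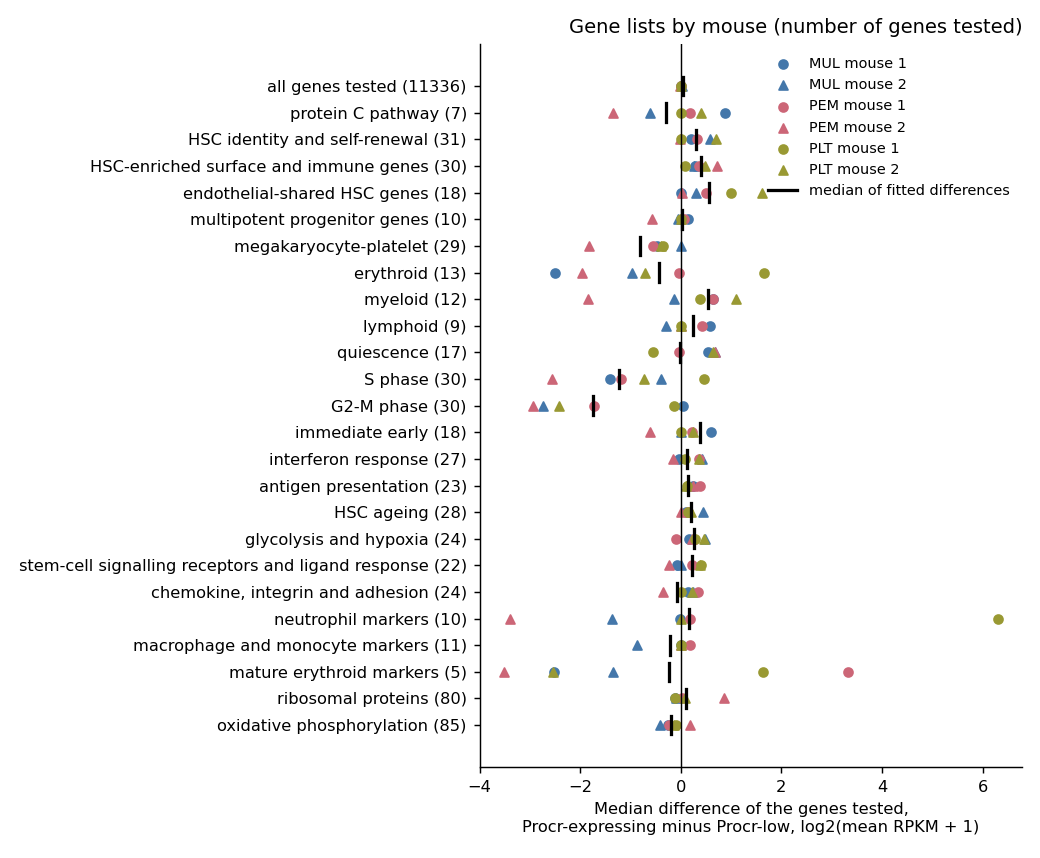
Median difference between Procr-expressing and Procr-low cells of the genes tested in each list, by mouse (points), and the median of the fitted differences (black bars), on the log2(mean RPKM + 1) scale. The G2-M bar is at -1.74 and the bar for HSC-enriched surface and immune genes at 0.41, while that for all genes is at 0.04.

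Markers of other cell types were seen in both classes. At least 3 markers of a mature blood cell type were in 20.9% of expressing and 18.1% of low cells. By mouse that share ran from 0% (PEM mouse 2) to 33.3% (PEM mouse 1) in expressing cells. In low cells it ran from 11.5% (MUL mouse 1) to 36.8% (PEM mouse 2). At least 3 neutrophil markers at 1 RPKM or more were in 6 expressing cells (5.45%) and 19 low cells (5.46%), with Elane and Mpo listed at 0 in all cells. The summed level of the 13 neutrophil markers ran from 83.7 to 12030 RPKM in the expressing cells of the mice, and from 241.5 to 19950 RPKM in low cells. Both maxima came from 1 mouse each, PLT mouse 1 and PEM mouse 2. At least 3 macrophage and monocyte markers were in 12 expressing cells (10.9%) and 24 low cells (6.90%), and their sum ranged from 527 to 892 and from 387 to 1775 RPKM. At least 3 T and NK cell markers were in 6 and 11 cells, with Cd3e, Cd3g and Cd4 listed at 0, and 3 mature erythroid markers in 2 and 16 cells. At least 3 B cell markers were in 0 and 1 cells, with Pax5 listed at 0, and 3 mast cell and basophil markers in 0 cells of both. At least 3 stromal and mature endothelial markers were in 1 and 0 cells, with Col1a1, Col3a1, Pdgfra and Dcn listed at 0. With the 23 expressing and 63 low cells that held at least 3 markers of any mature blood cell type left out, the G2-M median was -1.68 and the megakaryocyte-platelet median -1.08.

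The class difference was then compared between the MUL, PEM and PLT mice. For 0.0% of 11336 genes did it differ at an adjusted p under 0.05 (limma, lowest adjusted p = 0.903), and for 3.73% at an unadjusted p under 0.05.

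Within each class, cells were also split further by Procr, in the 5 mice that had at least 5 cells a side. Among low cells, those with a trace of Procr were compared with those listed at 0, and 0.0% of genes passed adjustment (4.78% at an unadjusted p under 0.05). The median of the G2-M list was 0.31 and that of the megakaryocyte-platelet list 0.31, both above 0, where those of expressing against low cells were below 0. The erythroid median was higher still, at 1.61 with 13 of 13 genes higher, where that of expressing against low cells was -0.43. Medians were below 0 for immediate early genes (-0.45, 14 of 18 lower) and multipotent progenitor genes (-0.24, 10 of 10 lower). Among expressing cells, those above the mouse's median Procr among them were compared with those below it, and 0.0% passed adjustment (4.05% at an unadjusted p under 0.05). The G2-M median was 0.72. The HSC lists did not share a direction, with medians of 0.17 for HSC-enriched surface and immune genes, -0.22 for HSC identity and self-renewal (12 of 31 higher) and -0.36 for genes shared with endothelium (8 of 18 higher).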

How the data were processed

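Index-sorted single cells were made into SMARTer Ultra Low RNA libraries, as stated per the labels' protocols. The authors deposited RPKM values for 22645 gene symbols in 458 cells, made with TopHat and featureCounts on mm10, per the submitters' processing notes (versions, gene lengths and strand settings not given in the sources used here). A second deposited table gives, per the file headers, for each cell how many reads mapped (a count), how many genes were detected (a count) and which percent of the reads was mitochondrial. RPKM values are not counts, so no count model was fitted. All cells were kept, and doublets were not called, as wells were sorted 1 cell each.

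Mice were named by the prefix of the cell titles, and all 6 had at least 5 cells on each side of 1 RPKM of Procr. Within each mouse the larger class was reduced at random to the size of the smaller, the RPKM of each gene was averaged, log2(mean + 1) was taken, and this was averaged over 100 draws, because a log mean over more cells is higher for rare genes. The test took the 11336 genes whose mean over all cells of a mouse reached 1 RPKM in 2 or more mice, and Procr was left out. With limma 3.58.1 (R 4.3.3), a model was fitted of the class with mouse as a block and an intensity-trended variance (9.99 degrees of freedom in total), with Benjamini-Hochberg adjustment over all genes and a threshold of 0.05. The block pairs the 2 classes of the same mouse. Differences between reconstitution types were tested with a moderated F test on the within-mouse differences. The test was also run on simulated data, with the outcome not given here. The titles of both MUL mice begin with the same code and those of each other mouse with a code of its own, so what the code marks and the type cannot be told apart.

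The members, gene lists and tests were chosen with earlier results of these data known. Named genes were to be the genes past the threshold, filled to 10 in each direction by the smallest unadjusted p, with a further set of HSC and lineage genes whatever their value, and any others are said to be named after their values were seen. Of that set, 1 gene is not reported here. Positions are from GENCODE M21, matched by symbol or older symbol. The alternatives were other pseudocounts, filters, scalings, averages and Procr thresholds, cells matched on detected genes, mapped reads or plate, no block, and each mouse left out. Shares have exact Clopper-Pearson 95% intervals, and where a share is 0 its limit is 3 counts of the total. Cells are not replicates, and p-values measure the spread over 6 mice.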

Additional observations from a re-analysis of the deposited data

Results flagged for a closer look

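The difference between the classes was taken in each of the 6 mice for 79 genes, lists and quality measures, and a mouse far from the other 5 was looked for in each, which chance gives in about 1 of 20. PEM mouse 2, which had 6 expressing cells, stood apart for Slamf1 (4.38), Mecom (-3.30), the medians of the multipotent progenitor (-0.57), megakaryocyte-platelet (-1.83) and ribosomal protein lists (0.86), and mapped reads (4.94 M). MUL mouse 1 stood apart for Atpif1 (-1.28), Neil3 (-0.57) and Vwf (-1.23). PLT mouse 1 stood apart for Hmgn2 (-0.10), Emcn (-2.06) and the median of the neutrophil markers (6.30), and MUL mouse 2 for the median of the macrophage and monocyte markers (-0.88).

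Some differences had opposite signs in both mice of 2 reconstitution types, and these contrasts between types were not tested. Detected genes were higher in the expressing cells of the MUL mice (mean 354.5) and PLT mice (91.5) and lower in those of the PEM mice (-131). The percent of mitochondrial reads was lower in the expressing cells of the MUL (-0.64 percentage points) and PLT mice (-0.44) and higher in those of the PEM mice (0.30). The median of the ribosomal protein genes was -0.11 in the MUL and 0.44 in the PEM mice.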

How the results depend on the processing

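The count of genes past the adjusted threshold was 0, in both directions and for the difference between types, under every alternative run, with the lowest adjusted p between the classes at 0.061 (Actb, median-ratio scaling). At an unadjusted p under 0.05 the count between the classes ran from 571 to 1095. Without the replicate block, in which the classes are paired by mouse, 0 genes passed and 645 had an unadjusted p under 0.05. With each mouse left out in turn 0 genes passed, and the differences ran from 35.2 to 165.9 detected genes, -0.034 to 1.02 M mapped reads (below 0 without PEM mouse 2) and -0.42 to -0.10 percentage points of mitochondrial reads. With Procr above 0 against listed at 0, detected genes differed by -8.25, Cdc25c by 0.60 and Gata1 by 0.43. Cdc25c differed by 0.021 without the cells rich in G2-M genes, and Ptprc by -0.011 at a threshold of 10 RPKM. Leaving out cells rich in G2-M genes or in mature markers was chosen after seeing the data. The cause of these shifts was not tested. With all cells of both classes the median of all genes was -0.28 and 32.5% of genes were higher (52.7% in the size-matched draws), since a mean over fewer cells misses rare genes more often. On that scale the medians were -2.13 for G2-M, -1.23 for megakaryocyte-platelet and 0.15 for HSC-enriched surface and immune genes. The G2-M median was below 0 under all 22 alternatives (-2.40 to -0.09), as was the megakaryocyte-platelet median (-1.23 to -0.13), and that of HSC-enriched surface and immune genes was above 0 (0.15 to 0.47). The G2-M value of -0.09 came from leaving out cells by the genes of that same list. PEM mouse 2 limits precision, with 6 expressing cells.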
